A study of Mus musculus with 24 samples.

Results

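Sox9, Hnf4a, Gata6, Foxa1, Foxa2, Pdx1, Klf5 and Elf3 encode transcription factors of the pancreatic duct and the wider foregut epithelium. They were taken from the array's annotation by gene symbol, each was measured by 1 probe set, and together they make up 8 of the 19505 genes analysed. The tissue was mouse tumour from a study of pancreatic ductal adenocarcinoma (PDAC) in which insulin-like growth factor 1 and insulin receptor signalling and autophagy were inhibited. Of the 24 Clariom S arrays, 6 were from the control group, whose treatment is labelled vector. A further 6 each were from tumours given BMS754807, a small-molecule inhibitor of those receptors, hydroxychloroquine, which blocks lysosomal degradation and so autophagy, or both agents (the combination). Strain, tumour model, dose and duration were not given in the sources used here. Nothing in the labels ties each sample to an animal of its own, so SDs and p-values measure only the spread between these samples, which may be technical.

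The foregut endoderm gives rise to stomach, duodenum, liver and pancreas, and its cells are specified by a network of transcription factors that stay active in the adult epithelia. Foxa1 and Foxa2 are forkhead factors that open closed chromatin, Gata6 is a zinc finger factor of endoderm, and Pdx1 is the homeodomain factor that marks the pancreatic bud. Hnf4a is a nuclear receptor of liver, gut and pancreas, Sox9 maintains ductal progenitors, Klf5 is a Krüppel-like factor of proliferating epithelium, and Elf3 is an epithelium-specific ETS factor. In PDAC, Gata6 and Hnf4a are known as markers of the better differentiated, classical tumours, and Sox9 as a marker of ductal identity.

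The signal is given as deposited, in log2 units, with the log base inferred from the values. All 8 genes lay above 4.32 log2, the 95th percentile of the mean signals of 1091 olfactory receptor genes, and so did all 192 single values. Of the 23 measured markers of ductal and other epithelium, 22 had a mean above that level, as did 14 of 14 fibroblast, 13 of 13 macrophage and 10 of 10 endothelial markers. The samples were therefore mixtures of cells, and in such bulk RNA fewer cells of a type and less RNA per cell cannot be told apart. Signal levels of different probe sets are not comparable, so the level of each gene is compared only with itself. Spreads and slopes of different genes are set side by side below, and the same limit bears on them.

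The promoters of Foxa1 and Elf3 are shown because these genes varied most between tumours among the 8 and varied together. Each sequence is the 250 bases before the annotated start in RefSeq on GRCm38.p6, 5′ to 3′ on the gene's strand, with capitals marking the letters of any motif searched. The Foxa1 window is chr12:57546112-57546361 on the minus strand and the Elf3 window is chr1:135258473-135258722 on the minus strand.
Foxa1: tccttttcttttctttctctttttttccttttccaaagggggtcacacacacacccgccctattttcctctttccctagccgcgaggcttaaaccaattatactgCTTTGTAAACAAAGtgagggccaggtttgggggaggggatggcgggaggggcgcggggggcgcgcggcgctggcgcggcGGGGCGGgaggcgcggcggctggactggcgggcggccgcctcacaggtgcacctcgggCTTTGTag
Elf3: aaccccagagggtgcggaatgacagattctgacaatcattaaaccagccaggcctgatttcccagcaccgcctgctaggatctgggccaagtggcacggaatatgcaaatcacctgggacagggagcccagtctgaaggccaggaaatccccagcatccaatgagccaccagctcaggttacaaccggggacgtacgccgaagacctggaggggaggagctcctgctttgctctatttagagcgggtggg
The windows had a GC content of 62.0% and 57.2%, against a median of 52.4% over 32851 RefSeq windows of the same length. Both strands were searched for a forkhead motif (TGTTTAC, in 3.17% of all windows), a GATA motif (AGATAA, 9.99%), an ETS motif (CCGGAAG, 6.91%), a GC box (GGGGCGG, 21.0%), a SOX motif (ACAAAG, 16.5%), an HNF4 motif (CAAAGTCCA, 0.384%) and a homeodomain motif (TAATTA, 4.84%). The Foxa1 window held 1 forkhead match, beginning 141 bases before the start and overlapped by 2 of its 3 SOX matches, and 1 GC box. The Elf3 window held a match to none of the 7 motifs.

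The arrays differed in the spread of their signal in a way that ran with some of these genes. The SD of the log2 signal over all genes of an array was 3.97 to 3.99 in the combination, 3.90 to 3.98 in control, 3.92 to 3.99 with BMS754807 and 3.90 to 3.98 with hydroxychloroquine. Over the 24 tumours with group means removed it had r = 0.82 with Elf3 (rho = 0.82, adjusted permutation p = 9e-05 over 9 relations), 0.81 with Klf5 (rho = 0.79, adjusted p = 0.00022), 0.57 with Foxa1 (rho = 0.56, 0.037), 0.55 with Gata6 (rho = 0.52, 0.029) and 0.59 with the score of the epithelial markers (rho = 0.59, 0.029). Without control tumour 4 and hydroxychloroquine tumour 4, the farthest in array SD, these were 0.75, 0.77, 0.38, 0.47 and 0.49. For Sox9, Hnf4a, Foxa2 and Pdx1 r was -0.11, 0.38, 0.38 and 0.20, and none passed. In limma's array weights, a measure of how closely an array follows its group, 3 stood lowest: 0.42 for BMS754807 tumour 6, 0.52 for control tumour 5 and 0.59 for hydroxychloroquine tumour 4. Correlations between these genes and with marker scores, and the slope tests, are given below also with array SD fixed or without these 3 arrays. So are the signs of the differences between combination and control. The group differences in the paragraphs on single genes, the partial correlations given the epithelial score and the nearest genes are given without that adjustment. The part of array SD in any of these results was not tested further.

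None of the 8 genes passed the test in any comparison. A linear model over all 24 arrays (limma, Benjamini-Hochberg adjustment over 19505 genes, threshold 0.05) called 0 of 8 members in each comparison. The same threshold called 0% of all genes in every comparison except BMS754807 against hydroxychloroquine, where it called 4 genes (0.0205%), none of them a member. The test for any difference over the 4 groups called 0 of 19505 genes, and limma's adjusted p for the 8 members ran from 0.759 for Foxa1 to 0.971 for Pdx1. For each of the 8 genes the ranges of the groups overlapped in every comparison. The share of all genes with such overlap was not counted, so this does not set the 8 apart.

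Foxa1 had the widest spread of the 8. Its signal in the control tumours was 6.43 at the lowest, 7.07 at the median and 8.14 at the highest. With BMS754807 alone these values were 5.26, 7.38 and 7.76 log2. Hydroxychloroquine alone gave 5.78, 7.55 and 8.66 log2, and the combination gave 7.66, 7.96 and 8.65 log2. The 3 other groups each held tumours far below the lowest combination tumour, and the upper ends of the 4 groups lay closer together. The group means were 7.22 ± 0.75, 6.89 ± 1.01, 7.42 ± 0.94 and 8.01 ± 0.37 log2 in the same order (SD, n = 6 each). Whether the SDs differ between groups was not tested. The combination lay above BMS754807 alone by 1.13 ± 0.43 log2 (SE), or 2.18-fold, with a 95% interval of 0.23 to 2.02 and 6 of 6 combination tumours above the BMS754807 mean. This difference had an unadjusted p of 0.0161 in limma and an adjusted p of 0.486, so it did not pass. In the same direction 1001 of all 19505 genes (5.13%) had an unadjusted p under 0.05, and 2 of the 8 members did. Against control the combination's Foxa1 difference was 0.80 ± 0.43 log2 (SE), with an interval of -0.10 to 1.69. BMS754807 alone differed from control by -0.33 ± 0.43 log2, and by -0.0063 without BMS754807 tumour 5.

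Elf3 was the other of these 2 members. Its lowest, median and highest values were 10.79, 11.21 and 11.55 log2 in control tumours and 9.76, 10.96 and 11.27 with BMS754807. They were 10.37, 11.38 and 11.72 log2 with hydroxychloroquine and 11.07, 11.34 and 11.55 with the combination. The BMS754807 group reached lower than the others, through tumour 6 at 9.76, and all 4 groups overlapped between 11.07 and 11.27. The mean with BMS754807 was 10.81 ± 0.56 against 11.21 ± 0.29 in control, a difference of -0.40 ± 0.23 log2 (SE), which did not pass in limma (adjusted p = 0.923). Without BMS754807 tumour 6 it was -0.19. The combination lay above BMS754807 by 0.52 ± 0.23 log2 (interval 0.040 to 0.99), with an unadjusted p of 0.035 and an adjusted p of 0.545 in limma, and by 0.31 without that tumour. Both the Foxa1 and the Elf3 mean were lowest with BMS754807 alone and highest with the combination. The interaction, the effect of BMS754807 with hydroxychloroquine minus its effect without, was 0.92 ± 0.61 log2 for Foxa1 and 0.47 ± 0.33 for Elf3 (SE), and neither passed (limma adjusted p = 0.951 for each). The Elf3 value was 0.26 without BMS754807 tumour 6, and the Foxa1 value 0.59 without hydroxychloroquine tumour 4.

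**Figure D1:**
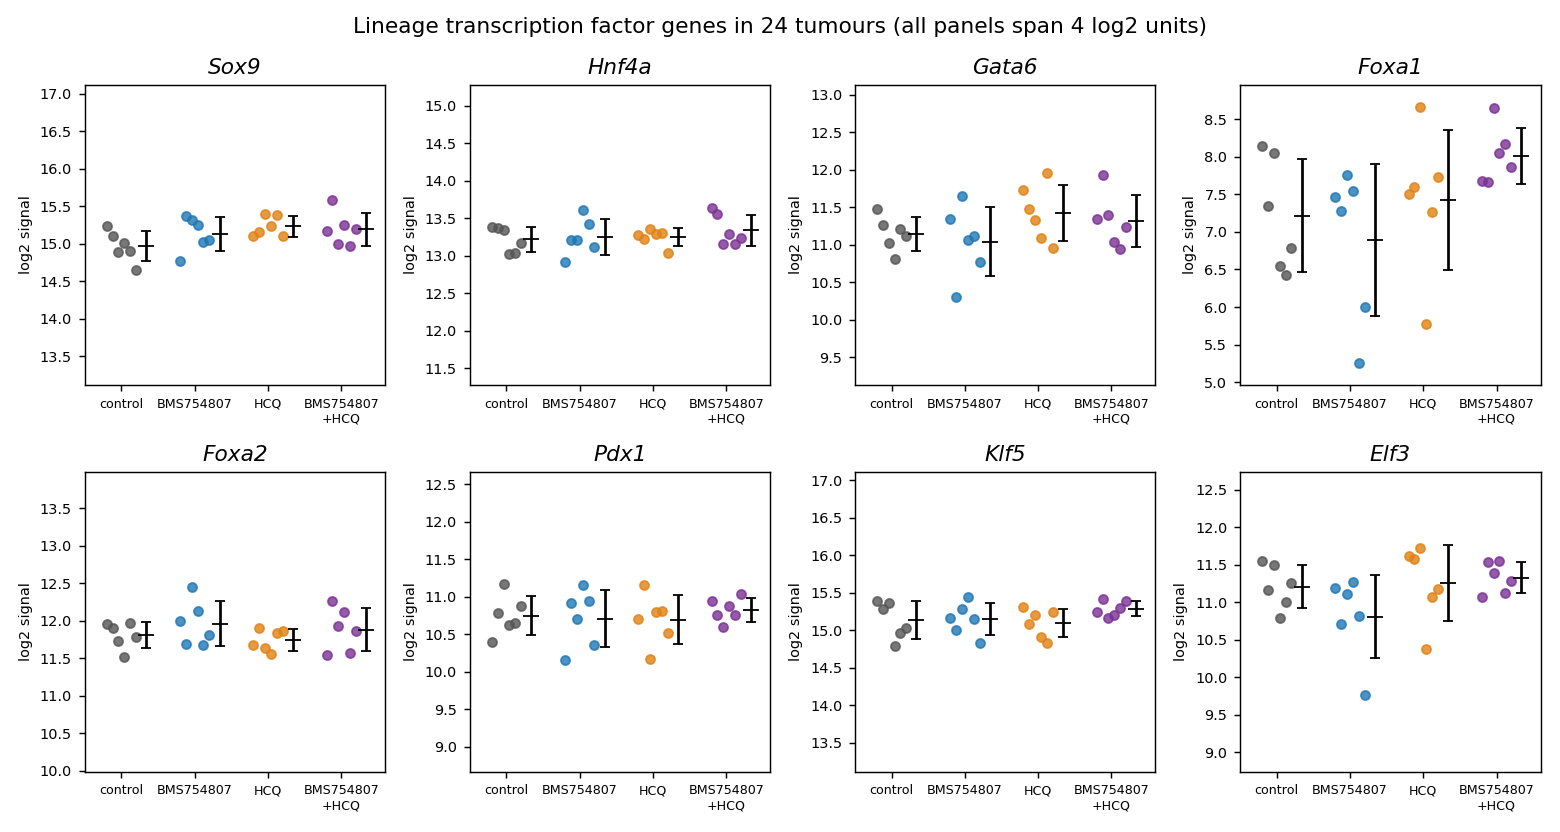
Signal of the 8 genes (y axis, log2 as deposited) in each tumour of the 4 treatment groups (x axis), with dots for tumours and bars for the group mean ± SD (n = 6). Every panel spans the same number of log2 units, with the 3.40 log2 range of Foxa1 the widest and the 0.65 log2 range of Klf5 the narrowest. The probe sets may differ in how their signal responds to RNA amount, which limits comparison of ranges between panels.

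Of the 8 genes, Sox9 had the highest share of its variance between groups, 23.9%, with Foxa1 at 23.7% and Elf3 at 21.9% close to it. The median over all genes was 12.2%. Sox9 in control tumours was 14.65 at the lowest, 14.96 at the median and 15.23 log2 at the highest. The same values were 14.77, 15.15 and 15.37 with BMS754807, 15.10, 15.20 and 15.40 with hydroxychloroquine, and 14.97, 15.18 and 15.58 with the combination. Every hydroxychloroquine tumour lay above the control mean of 14.96, while 2 control tumours reached or exceeded the lowest of them. The difference from control was 0.27 ± 0.12 log2 (SE), or 1.20-fold, with an interval of 0.0097 to 0.52, an unadjusted p of 0.0426 and an adjusted p of 0.979 in limma. This was 1 of 8 members at an unadjusted p under 0.05, against 474 genes (2.43%) that were higher at that p among all genes. With BMS754807 and with the combination Sox9 was 0.17 ± 0.12 and 0.23 ± 0.12 log2 above control, and these comparisons share the same 6 control tumours.

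Gata6 was the most variable after Foxa1 and Elf3. It ran from 10.81 to 11.47 log2 in control tumours, from 10.31 to 11.65 with BMS754807, from 10.96 to 11.95 with hydroxychloroquine and from 10.94 to 11.93 with the combination, with medians of 11.16, 11.09, 11.40 and 11.29. The largest of its group differences was that of BMS754807 from hydroxychloroquine, -0.38 ± 0.20 log2 (SE), with an interval of -0.80 to 0.040, and it did not pass (limma adjusted p = 0.616). Without BMS754807 tumour 2 it was -0.24. Foxa2, the relative of Foxa1, ranged over 0.93 log2 in all 24 tumours, from 11.52 to 12.45. Its group means lay between 11.74 and 11.96 log2, and BMS754807 alone, which had the lowest Foxa1 mean, had the highest Foxa2 mean.

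Pdx1, Hnf4a and Klf5 had group means within 0.19 log2 of each other. Pdx1 had group means of 10.75 ± 0.26 in control, 10.70 ± 0.38 with BMS754807, 10.69 ± 0.33 with hydroxychloroquine and 10.82 ± 0.16 with the combination (SD, n = 6 each). Hnf4a had means of 13.22 ± 0.17, 13.25 ± 0.24, 13.25 ± 0.12 and 13.34 ± 0.21 in that order. The share of variance between groups was 3.55% for Pdx1, 6.14% for Hnf4a and 13.9% for Klf5, against the median of 12.2% over all genes. Klf5 had means of 15.14 ± 0.25, 15.15 ± 0.21, 15.10 ± 0.19 and 15.29 ± 0.10 log2. Its lowest, median and highest values were 14.79, 15.16 and 15.39 in control tumours and 15.17, 15.28 and 15.42 with the combination, so the combination tumours sat inside the upper part of the control range or just above it. Over the 3 treatments the single, unadjusted 95% intervals of the differences from control lay between -0.22 and 0.36 log2 for Hnf4a. For Klf5 they lay between -0.29 and 0.40 log2. These intervals measure only the spread between these samples and are not a joint bound on a treatment effect.

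All 8 genes had a higher mean in the combination than in control, with a median difference of 0.13 log2 against 0.0067 over all genes, of which 51.4% were higher. With BMS754807 alone 4 were higher and 4 lower (median -0.018 log2), and with hydroxychloroquine alone 5 were higher and 3 lower (median 0.038 log2). None of these differences passed, and the 3 comparisons share their control tumours. Beside this, the mean score of the epithelial markers was -0.19 ± 0.43 log2 in control, -0.021 ± 0.79 with BMS754807, -0.035 ± 0.55 with hydroxychloroquine and 0.25 ± 0.36 with the combination (SD, n = 6 each). The macrophage score was 0.26 ± 0.64 in control and -0.45 ± 0.49 with the combination, with 13 of 13 measured markers lower, and 10 of 10 endothelial markers were lower too. The score is the mean over a list's genes of the signal minus each gene's mean over the 24 tumours. None of the 23 epithelial, 13 macrophage or 10 endothelial markers passed the test against control. With the epithelial score in the model the Foxa1 difference of the combination from control was 0.24 ± 0.23 log2 in place of 0.80, and that from BMS754807 was 0.79 ± 0.22 in place of 1.13. Neither passed (limma adjusted p = 0.999 and 0.352). The differences of Foxa2 and Elf3 from control then turned to -0.019 and -0.14 log2. With array SD in the model in its place, Gata6 (-0.074), Foxa2 (-0.039), Klf5 (-0.044) and Elf3 (-0.30) were below control, so the common direction of the 8 genes did not hold with either covariate. Without the 3 arrays of lowest weight all 8 were above control.

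**Figure D2:**
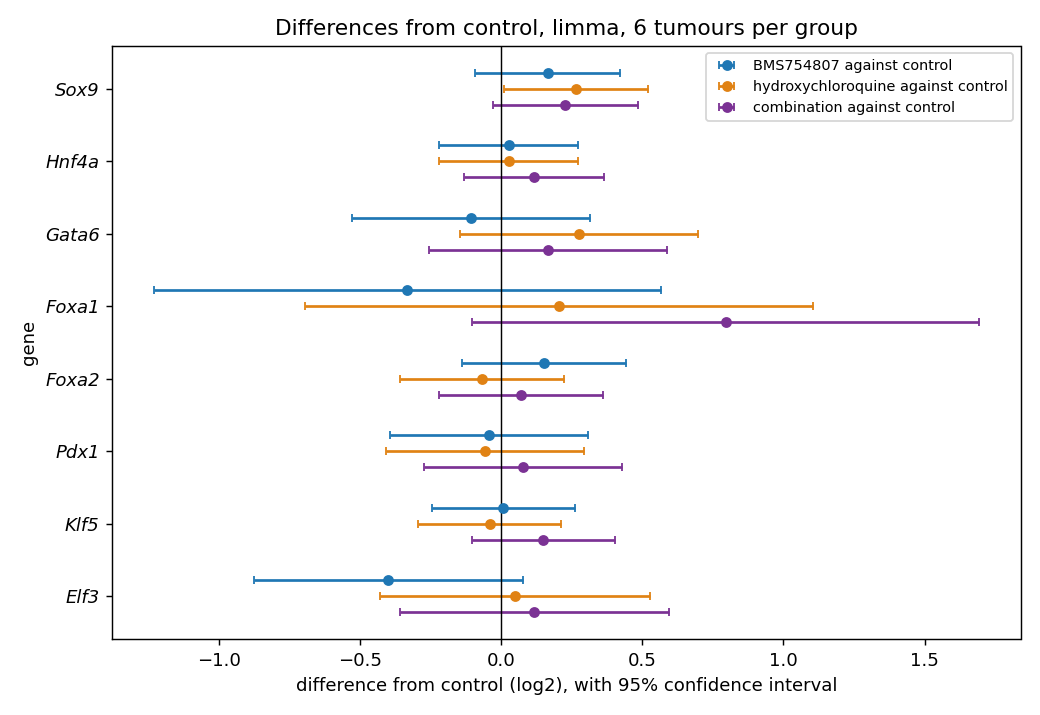
Differences of each treated group from control (log2, points, with 95% intervals from the limma model) for the 8 genes. The combination points all lie above 0 in this model without covariates, and the intervals include 0 except that of Sox9 with hydroxychloroquine, 0.0097 to 0.52.

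The 8 genes differed widely in how much their signal varied between tumours. From the lowest to the highest tumour Foxa1 spanned 3.40 log2 or 10.6-fold, from BMS754807 tumour 5 to hydroxychloroquine tumour 3. Elf3 spanned 1.96 log2 (3.89-fold) and Gata6 1.64 log2 (3.12-fold). The other 5 spanned between 0.65 log2 for Klf5 and 1.01 log2 for Pdx1. The SD within groups placed Foxa1 at percentile 96.7 of all genes, Elf3 at 71.6 and Gata6 at 60.1, and Sox9, Klf5 and Hnf4a at 13.4, 12.8 and 11.2. Sox9, Klf5 and Hnf4a also had the highest mean signals of the 8 (15.13, 15.17 and 13.26 log2), and Foxa1 had the lowest (7.39). How each probe set responds to the amount of its RNA is not known, and the part of signal level in this order was not tested.

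Elf3 varied together with Klf5 and with Foxa1 from tumour to tumour, and Gata6 with Foxa2, though none of these 3 calls held without the arrays of lowest weight. Correlations were taken over the 24 tumours after each group's mean was removed, with permutation of the values within groups and adjustment over the 28 pairs of genes. Klf5 and Elf3 had r = 0.73 (rho = 0.71, permutation p = 0.00019, adjusted p = 0.0053), with r of 0.90, 0.89, 0.68 and 0.034 within control, BMS754807, hydroxychloroquine and combination tumours. Foxa1 and Elf3 had r = 0.72 (rho = 0.71, permutation p = 0.002, adjusted p = 0.029), with 0.89, 0.59, 0.90 and 0.087 within the groups. In the combination group, where all 3 genes varied least, neither pair had an r above 0.1. Gata6 and Foxa2, the remaining called pair, had r = 0.61 (rho = 0.51, permutation p = 0.0051, adjusted p = 0.048). Foxa1 with Klf5 had r = 0.58 and Sox9 with Hnf4a r = 0.56, and neither passed by r (adjusted permutation p = 0.078 for each). Within the groups Foxa1 with Klf5 had r of 0.93, 0.51, 0.61 and -0.67, negative in the combination. By rho Foxa1 with Klf5 passed (0.64, adjusted p = 0.045) and Gata6 with Foxa2 did not (adjusted p = 0.099).

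Of the 3 called pairs, Foxa1 with Elf3 still passed without the 2 tumours farthest from the median of Foxa1 (r = 0.75, adjusted permutation p = 0.019). Klf5 with Elf3 had an adjusted p of 0.056 without control tumour 4 and BMS754807 tumour 6. Gata6 with Foxa2 had r = 0.46 (adjusted p = 0.22) without BMS754807 tumour 2 and combination tumour 2. These 2 calls did not hold without those tumours, although the Klf5 and Elf3 correlation was 0.63 in place of 0.73. Without the 3 arrays of lowest weight none of the 28 pairs passed, with r = 0.68 for Klf5 and Elf3, 0.57 for Foxa1 and Elf3 (adjusted permutation p = 0.10 for each) and 0.58 for Gata6 and Foxa2 (0.11). With array SD held fixed none passed either, and the partial r was 0.19, 0.53 and 0.52. Pdx1 and Sox9 were in none of the called pairs, and neither was Hnf4a.

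**Figure D3:**
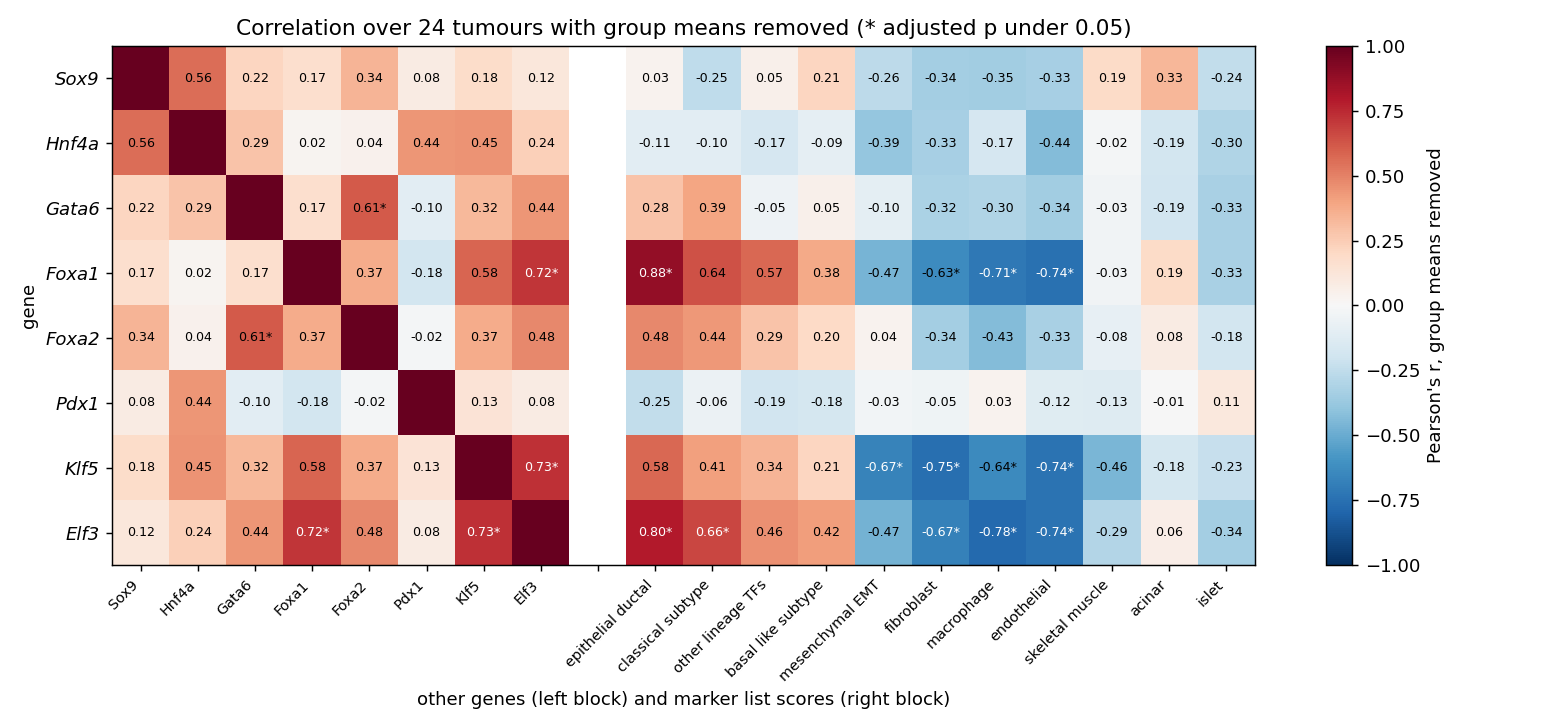
Pearson correlations over 24 tumours with group means removed, between the 8 genes and between each gene and the scores of marker lists (colour, r from -1 to 1). Asterisks mark adjusted permutation p under 0.05, and they lie in the Foxa1, Klf5 and Elf3 lines and at Gata6 with Foxa2.

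Foxa1, Klf5 and Elf3 were also the genes that followed marker scores of cell types. Each gene was set against the scores of 17 marker lists, 136 pairs in all, of which 13 passed, 4 with Foxa1, 4 with Klf5 and 5 with Elf3. Foxa1 had r = 0.88 with the epithelial score (rho = 0.87, permutation p = 1e-05, the smallest the permutations can give, adjusted p = 0.0014) and Elf3 had r = 0.80 (rho = 0.82, permutation p = 2e-05, adjusted p = 0.0014). Both correlations were positive within every group, with r from 0.66 to 0.97 for Foxa1 and from 0.67 to 0.89 for Elf3. Each of these values rests on 6 tumours and was not tested. Both correlations still passed without BMS754807 tumours 5 and 6, the farthest in the score (r = 0.83 and 0.79, adjusted permutation p = 0.0068 and 0.0075). Without the 3 arrays of lowest weight r was 0.84 for Foxa1 (adjusted permutation p = 0.0027) and 0.70 for Elf3 (0.043). With array SD held fixed it was 0.82 for Foxa1 (0.0014) and 0.67 for Elf3, which did not pass (0.12). Klf5 had r = 0.58 with this score, which did not pass (adjusted permutation p = 0.071). Elf3 also followed the score of classical PDAC subtype genes, r = 0.66 (adjusted permutation p = 0.02), and this did not pass without BMS754807 tumours 1 and 6 (r = 0.57, adjusted p = 0.11). Nor did it pass without the 3 arrays of lowest weight (r = 0.49, adjusted permutation p = 0.40) or with array SD held fixed (partial r = 0.31, 0.63). Its r was 0.71 within control, 0.78 with BMS754807, 0.73 with hydroxychloroquine and -0.49 with the combination.

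The other 10 called pairs were negative. The fibroblast score had r = -0.75 with Klf5, -0.67 with Elf3 and -0.63 with Foxa1 (adjusted permutation p from 0.0095 to 0.044). The macrophage score had r = -0.78 with Elf3, -0.71 with Foxa1 and -0.64 with Klf5, and the endothelial score had r = -0.74 with each of the 3. The mesenchymal score, of genes such as Vim and Zeb1, had r = -0.67 with Klf5. Within the combination group 3 of these 10 pairs were positive, endothelial with Foxa1 (0.48) and Elf3 (0.088) and fibroblast with Foxa1 (0.21). None of the 10 passed without the 3 arrays of lowest weight (r from -0.70 to -0.39), and with array SD held fixed only the macrophage score with Elf3 did (partial r = -0.69, adjusted permutation p = 0.048). Without the 2 farthest tumours of each list score 8 of all 13 pairs kept an adjusted p under 0.05. Besides Elf3 with the classical score, the pairs that did not were the fibroblast score with Foxa1 (r = -0.47, adjusted permutation p = 0.34) and Elf3 (-0.59, 0.11), without control tumour 5 and hydroxychloroquine tumour 4, and the macrophage score with Klf5 (-0.50, 0.16) and Elf3 (-0.66, 0.0503), without control tumour 5 and BMS754807 tumour 6. Sox9, Hnf4a, Gata6, Foxa2 and Pdx1 passed with none of the 17 lists, and their r with the epithelial score was 0.031, -0.11, 0.28, 0.48 and -0.25.

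Per unit of epithelial score, Foxa1 differed by 1.28 ± 0.16 log2 and Elf3 by 0.60 ± 0.10 log2 (SE). The slopes were 0.20 ± 0.085 for Foxa2, 0.20 ± 0.066 for Klf5 and 0.18 ± 0.14 for Gata6. They were 0.011 ± 0.082 for Sox9, -0.037 ± 0.078 for Hnf4a and -0.13 ± 0.12 for Pdx1, with 95% intervals that reached no higher than 0.18, 0.13 and 0.12. The score accounted for 77.4% of the within-group variance of Foxa1, 63.3% of that of Elf3, 33.4% of that of Klf5 and 0.0986% of that of Sox9. In tests of the differences between slopes, chosen after seeing the data and adjusted over 28 pairs, the Foxa1 slope exceeded each of the other 7 (adjusted permutation p from 4.67e-05 to 0.0039) and the Elf3 slope exceeded the remaining 6 (adjusted p up to 0.039). Klf5 had a steeper slope than Hnf4a (adjusted permutation p = 0.004) and Pdx1 (0.023), and for Klf5 against Sox9 the difference did not pass (0.12). Without the 3 arrays of lowest weight, or with array SD held fixed, the Foxa1 slope still exceeded all 7 others (adjusted permutation p up to 0.019 and 0.0052). It was 1.23 and 1.21 log2 in these settings, while the Elf3 slope was 0.38 and 0.36 and the Klf5 slope 0.15 and 0.052. With array SD fixed the Sox9 slope was 0.053. Elf3 against Gata6 and against Foxa2 no longer passed (adjusted permutation p = 0.33 and 0.43 without those arrays, 0.11 and 0.37 with array SD fixed). How each probe set responds to the amount of its RNA is not known, which limits the comparison of slopes between genes.

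**Figure D4:**
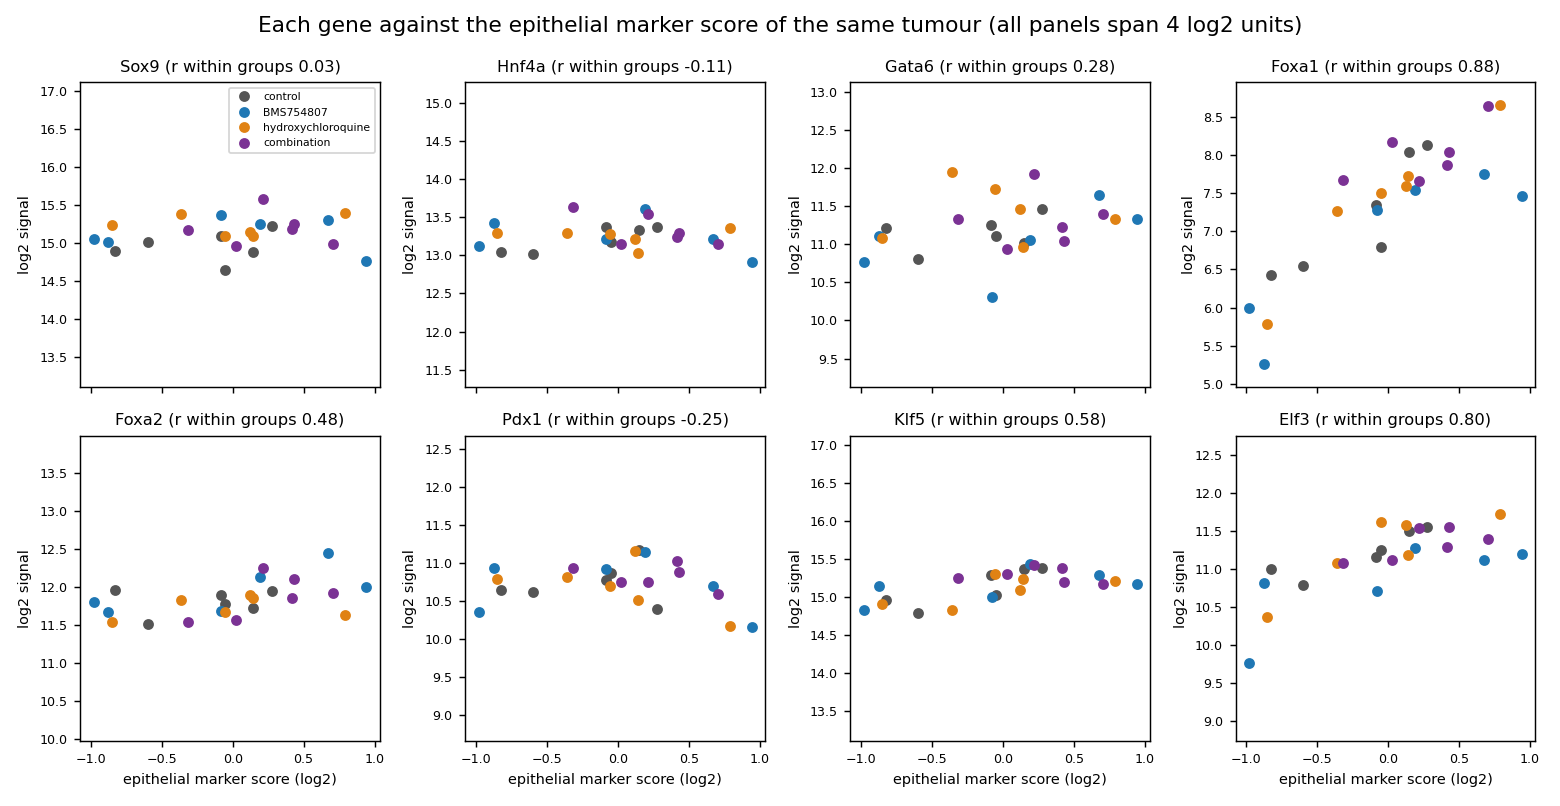
Signal of each gene (y axis, log2) against the epithelial marker score of the same tumour (x axis, log2), coloured by treatment group. Foxa1 and Elf3 climb with the score (r = 0.88 and 0.80 with group means removed), while Sox9 stays level (r = 0.031).

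The 5 tumours with the lowest Foxa1 were BMS754807 tumours 5 and 6, hydroxychloroquine tumour 4 and control tumours 4 and 5, and they were also the 5 with the lowest epithelial score, -0.98 to -0.60. Of these 5, 4 were among the 5 lowest for Elf3 and 4 among the 5 lowest for Klf5, with 3 for Hnf4a, 2 each for Gata6 and Foxa2, and 1 each for Sox9 and Pdx1. Of the same 5, 4 were also among the 5 arrays with the lowest array SD. No combination tumour was among them. BMS754807 tumour 1 was different. It had the highest epithelial score of all, 0.94, and at the same time the lowest Hnf4a, 12.91 log2, and the lowest Pdx1, 10.16 log2, of the 24 tumours.

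After the epithelial score was held fixed, the pair Foxa1 and Elf3 had a partial r of 0.053. Klf5 with Elf3 had 0.55, Gata6 with Foxa2 0.57, Sox9 with Hnf4a 0.56, Hnf4a with Klf5 0.63 (0.45 before) and Hnf4a with Elf3 0.54 (0.24 before). By permutation none of the 28 partial correlations passed (adjusted p = 0.071 for each of these pairs other than Foxa1 with Elf3). What part the cell makeup has in any of these correlations, that of Foxa1 with Elf3 among them, was not tested.

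The genes most like each factor over the 24 tumours, out of 17116 compared and given as a description, differed in kind. For Elf3 they were Lsr, a tricellular junction protein (r = 0.93), Esrp2, an epithelial splicing regulator (0.90), and Epn3, an epsin (0.90). For Foxa1 they were the tight junction gene Cldn3 (0.89), Mal2, which acts in apical transport (0.87), and Ncmap (0.86). Of the 23 measured epithelial markers, 11 were among the 100 genes most like Foxa1 and 7 among the 100 most like Elf3. For Klf5 and Gata6 there was 1 each, and for Sox9, Hnf4a, Foxa2 and Pdx1 there were 0.

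The nearest genes of Gata6 were Cldn18, a claudin of stomach and lung epithelium (r = 0.73), Cant1 (0.70) and Mif (0.70). Those of Klf5 were Tmie (0.86), Zfp395 (0.85) and Chchd3 (0.82). Sox9 was nearest to Rgs11 (0.79), Glg1 (0.77) and Zfp735 (0.73), and Hnf4a to Il1rn, the interleukin-1 receptor antagonist (0.80), Slc18b1 (0.74) and Cacna1a (0.74). Foxa2 was nearest to Ppp1r2-ps3 (0.77), Zfp36l2 (0.77) and Rreb1 (0.74), and Pdx1 to Arf5 (0.78), Fam136a (0.78) and Ppp1r1b (0.77). None of the nearest 3 genes of these 6 factors was on the epithelial list.

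Other transcription factors of duct, foregut, acinar and endocrine lineages also passed in no comparison. Of the 40 listed, 37 were measured 21 had a mean above the olfactory receptor level, and 0 of 37 were called. Against control 17 were higher and 20 lower with BMS754807, 20 higher and 16 lower with hydroxychloroquine, and 23 higher and 14 lower with the combination. With the smallest p in each comparison, Tfcp2l1, a grainyhead-family factor, was -0.59 ± 0.22 log2 and Hhex, a homeodomain factor of foregut and liver bud, -0.50 ± 0.22 log2 from control with BMS754807. With hydroxychloroquine Grhl1, also of the grainyhead family, was 0.48 ± 0.20 and Onecut1, a factor of the pancreatic progenitor, 0.37 ± 0.19 log2 from control. Both Onecut1 means (4.31 and 3.94) and the control mean of Grhl1 (4.15) lay below the olfactory receptor level. With the combination Cdx1, an intestinal factor with a mean below the olfactory receptor level, was -0.49 ± 0.21 and Hes1, a Notch target, 0.29 ± 0.16 log2 from control (SE throughout).

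Among the epithelial markers 16 of 23 were higher than control with BMS754807, 14 with hydroxychloroquine and 21 with the combination, and 0 passed. Those with the smallest p were Prss8 (0.61 ± 0.28 log2) and the ductal keratin Krt19 (0.23 ± 0.11) with BMS754807, and Krt8 (-0.19 ± 0.088) and Rab25 (0.61 ± 0.33) with hydroxychloroquine. Both Prss8 means, 3.17 and 2.56 log2, lay below the olfactory receptor level, so its difference is not one between levels above background. With the combination they were Cldn3 (1.22 ± 0.50 log2) and St14, the protease matriptase (1.58 ± 0.74, SE). Cldn3 is the gene most like Foxa1 between tumours, and the difference of Foxa1 in the same comparison was 0.80 ± 0.43 log2.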

How the data were processed

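Total RNA from homogenised tumour was labelled and hybridised to Clariom S arrays, per the labels' protocols. The authors deposited 1 table of 22206 probe sets and 24 arrays, taken as log2 signal of their own processing. Transcriptome Analysis Console 4.0 is the tool listed in the submitters' processing notes; normalization and the array's genome build were not given in the sources used here. Array medians were 6.79 to 7.03. Arrays have no read depth, and their number limits the precision. Of probe sets with 1 gene symbol (19572), the one with the highest mean per gene was kept, leaving 19505 genes. limma 3.58.1 in R 4.3.3 fitted 1 coefficient per group to all 24 arrays as deposited, with two-sided tests adjusted by Benjamini-Hochberg over all genes. The linear model was tested on simulated data, and the correlation, slope and promoter steps were not. Correlations used values minus their group mean and 100000 permutations within groups (Python 3.11.15). Named genes were the 8 members, the 3 genes with the highest r to each (predicted, olfactory, vomeronasal and receptor segment genes passed over), and from the lineage factor and epithelial lists the 2 with the smallest p in each comparison with control. The members and lists were chosen with earlier results of these data known. Of 8 genes, 5 had a promoter entry in the table used. Alternatives covered normalization, a low-signal filter, array weights, covariates, priors, a replicate block and each array left out; those on the 3 arrays of lowest weight and partial correlations given array SD were added after seeing the data.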

Additional observations from a re-analysis of the deposited data

Results flagged for a closer look

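Within groups of 6, 1 of the 32 combinations of gene and group held a tumour set far apart from the others: Elf3 in BMS754807 tumour 6, at 9.76 log2. The next lowest tumour of that group had 10.71 and the highest 11.27, so the gap was 0.629 of the group's range, just above Dixon's critical value for 6 samples. Chance exceeds that value in about 1 group in 20. The same tumour had the lowest epithelial marker score of all 24, -0.98, and the lowest array weight, 0.42.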

How the results depend on the processing

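None of the 8 genes passed in any comparison under any alternative run, and the smallest adjusted p was 0.0999 (limma, Elf3, BMS754807 against hydroxychloroquine, array SD as covariate, difference -0.59 log2). Counts over all genes did move. For BMS754807 against hydroxychloroquine the 4 calls became 2 after quantile normalization, 0 with array medians subtracted, 10 with the low-signal filter, 1 with array weights, 13 with a trended and robust prior, 19 with the epithelial score and 7 with array SD as covariate, 1 with only these 2 groups, 1 without the 3 arrays of lowest weight (added after seeing the data), and 0 to 6 with 1 tumour left out. The labels do not say whether replicate numbers pair the samples. Of same-number pairs 12 of 36 had r over 0.1, and 6 of 24 arrays were closest to their own number. The mean r was 0.016 for same-number pairs and -0.00022 for pairs of other numbers and groups. All 6 pairs of number 3 had r of 0.11 to 0.40. The share of other-number pairs over 0.1 was not counted, so pairing stays undecided. A replicate block gave 1 call for BMS754807 against hydroxychloroquine and 1 for hydroxychloroquine against control. The test over the 4 groups gave 2 calls with the trended prior and 0 to 1 with 1 tumour left out. BMS754807 against control and combination against BMS754807 gave 0 to 1 likewise.

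Some differences from control changed sign, the largest reversed value being that of Elf3 with the combination, from 0.12 log2 to -0.30 with array SD as covariate. Against control with BMS754807 these were Hnf4a (-0.018 log2 with array weights) and Klf5 (-0.021 quantile, -0.010 weights, -0.026 epithelial score, -0.020 array SD). With hydroxychloroquine they were Hnf4a (-0.018 with medians subtracted, -0.027 weights) and Elf3 (-0.042 epithelial score). With the combination and array SD as covariate they were Gata6 (-0.074), Foxa2 (-0.039), Klf5 (-0.044) and Elf3 (-0.30), and with the epithelial score Foxa2 (-0.019) and Elf3 (-0.14). Without the 3 arrays of lowest weight they were Pdx1 with BMS754807 (0.008) and Hnf4a (-0.018) and Foxa2 (0.004) with hydroxychloroquine. With 1 tumour left out the ranges crossed 0 with BMS754807 for Hnf4a (-0.046 to 0.094), Gata6 (-0.23 to 0.039), Pdx1 (-0.13 to 0.065) and Klf5 (-0.061 to 0.072). They did so with hydroxychloroquine for Hnf4a (-0.013 to 0.070), Foxa1 (-0.042 to 0.53), Pdx1 (-0.15 to 0.049), Klf5 (-0.11 to 0.014) and Elf3 (-0.043 to 0.23), and with the combination for Foxa2 (-0.0063 to 0.14). Foxa1 in the combination against BMS754807 stayed between 0.80 and 1.30. The cause was not tested. Of the correlations, 3 between members became 1 without the 2 farthest tumours and 0 given the epithelial score, and 13 with list scores became 8. In settings added after seeing the data they were 0 and 2 without the 3 arrays of lowest weight, 0 and 2 given array SD, and 3 and 11 by rho.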
